A study of Mus musculus with 10 samples.

Results

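Stab2, Lyve1, Clec4g, Fcgr2b, Pecam1, Kdr, Plvap, Cd34 and Vwf, 9 genes of the cells that line blood vessels, were followed in spatial transcriptomics of a mouse model of hepatoblastoma, a liver tumor of early childhood. They were chosen by name as markers of liver sinusoidal endothelium (Stab2, Lyve1, Clec4g and Fcgr2b), of capillary and large-vessel endothelium (Plvap, Cd34 and Vwf) or of both (Pecam1 and Kdr). All 9 were found among the 31053 genes of the deposited tables. Visium slides carry spots of barcoded primers that bind the polyadenylated RNA of a frozen section, and each captured molecule is counted once by its unique molecular identifier (UMI). The area of a spot usually covers more than 1 cell.

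There were 10 sections of 7 tissues. NEJ146 had 4 adjacent sections and the other 6, NEJ638, NEJ654, NEJ677, NEJ687, NEJ634 and NEJ723, had a single section. All samples are labeled hepatoblastoma. The model is ABC-Myc, in which Cre driven by the albumin promoter switches on a MYC transgene in the hepatocyte lineage, so that endothelial cells are not the cells meant to carry it. The labels describe NEJ146 as a section from the tumor, while the protocol of the other 6 tissues names both tumor and normal liver without assigning them. In the study's own text, NEJ146, NEJ634, NEJ687 and NEJ723 are tumors, and 3 healthy livers are counted besides them. By that count NEJ638, NEJ654 and NEJ677 would be the healthy livers, although that text does not name them. The labels used here give neither the age nor the genotype of each animal. Because the labels do not settle which section is tumor, each tissue was its own group and no tissues were pooled or tested against others.

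Liver sinusoids are the low-pressure channels through which blood passes along the plates of hepatocytes. Their endothelium is perforated by open pores, lies on little basement membrane, and clears waste molecules from the blood through scavenger and Fc receptors. Ordinary capillaries and larger vessels keep a basement membrane, and their endothelium carries molecules such as Cd34 and Vwf that sinusoidal cells have little of. In liver disease and in many liver tumors, sinusoids are known to lose sinusoidal genes and to gain capillary ones, which is called capillarization.

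Levels are counts per 1e+06 UMIs (CPM), the UMIs of a gene as a share of all UMIs over the tissue spots of a section. Tissue spots were those called by the deposited position file or, in NEJ146, those with at least 8000 UMIs. There were 1890 to 4878 tissue spots per section, with 39280329 to 117077925 UMIs in them. All sections share the barcodes of the slide design, 4989 of which occur in all 10, so a barcode marks a place on a slide and not a cell. Intervals of single sections are exact Poisson 95% intervals and cover counting error, whereas the SD of NEJ146 (n = 4 sections) reflects cutting and library making within 1 tissue. Section 4 of NEJ146 stood apart from the other 3. In a chi-square comparison of counts over genes it reached 67.6 to 91.6 per degree of freedom against each of them, while they reached 14.8 to 20.5 among themselves, so steps that depend on it are given with and without it. The spread between animals was not measured, so no p-values are given. Spots off the tissue also held RNA. The CPM of a member there was 0.469 to 1.42 times that on tissue over 54 values of 6 tissues (median 0.885). Whether RNA spread over the slide or tissue lay outside the called spots cannot be told apart, since spots off the tissue held 7864 to 12424 UMIs on average in these tissues. Alb, the main hepatocyte transcript, took 5.17 to 8.57% of tissue UMIs in NEJ638, NEJ654 and NEJ677 and 0.676 to 1.31% in all other sections.

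The labeled tissue was checked against endothelial markers that are not among the 9 genes. Cdh5, an adhesion molecule of all endothelium, was present in every tissue, from 13.8 CPM in NEJ723 to 28.5 CPM in NEJ687. The summed level of 16 general endothelial genes ranged from 218 CPM in NEJ677 to 325 CPM in NEJ687, a 1.49-fold range. Egfl7, a protein that endothelial cells secrete into their matrix, was among them and ran from 38.2 CPM in NEJ677 to 106 in NEJ723. The other 15 genes summed to 137 CPM in NEJ723 and 227 CPM in NEJ638, a 1.66-fold range, and to 179 to 223 CPM in the tissues between. Endothelial RNA was therefore measurable in all 7 tissues.

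The DNA before the start of 2 of the genes is shown, because they are the sinusoidal and the capillary gene with the widest range over the tissues. RefSeq on GRCm38.p6 gave an upstream window for 5 of the 9 members. Capitals mark GGAAG or, on the other strand, CTTCC, the core of motifs bound by ETS factors, a family to which several endothelial regulators belong. Clec4g lies at chr8:3707064-3720651 on the minus strand, and the 250 bases before it are chr8:3720652-3720901, read on that strand. Cd34 lies at chr1:194938819-194961279 on the plus strand, and the 250 bases before its RefSeq start are chr1:194938571-194938820.
Clec4g: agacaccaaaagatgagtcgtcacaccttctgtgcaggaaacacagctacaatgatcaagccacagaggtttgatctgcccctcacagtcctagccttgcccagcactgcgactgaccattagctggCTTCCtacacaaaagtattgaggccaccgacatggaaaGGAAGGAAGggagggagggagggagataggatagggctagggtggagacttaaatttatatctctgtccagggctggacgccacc
Cd34: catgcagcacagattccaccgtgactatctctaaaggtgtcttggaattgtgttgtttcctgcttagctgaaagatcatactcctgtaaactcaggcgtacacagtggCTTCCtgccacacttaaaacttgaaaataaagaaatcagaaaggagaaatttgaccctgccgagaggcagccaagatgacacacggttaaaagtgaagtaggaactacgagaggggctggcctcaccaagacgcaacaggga
The Clec4g window held 3 such matches, of which 2 overlap by a base, and the Cd34 window held 1. Of 32851 windows of the same length before mouse genes, 64.1% held at least 1 match on either strand, so a match is common. GATAA, the core bound by GATA factors, was in neither window on either strand and in 22.6% of all windows. On GRCm38 the other members lie at chr10:86841198-87008025 (Stab2), chr7:110850607-110863239 (Lyve1), chr1:170958617-170976547 (Fcgr2b), chr11:106654217-106750628 (Pecam1), chr5:75932827-75978458 (Kdr), chr8:71497765-71511752 (Plvap) and chr6:125546774-125686679 (Vwf). None overlaps another annotated gene on its own strand.

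Stab2, a scavenger receptor for hyaluronan that is typical of sinusoidal endothelium, was present in every tissue. Its level was 59.0 CPM in NEJ638, 54.9 in NEJ654, 47.6 in NEJ687, 43.4 in NEJ677, 39.8 ± 2.58 in NEJ146 (SD, n = 4 sections), 29.5 in NEJ723 and 28.9 in NEJ634. The 4 sections of NEJ146 had 41.7, 41.7, 39.7 and 36.2 CPM. The highest level was 2.04 times the lowest.

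Neighbors in such an order are said here to differ where their gap on the log2(CPM + 1) scale was over 2 times the SD of that gene between NEJ146 sections and their intervals did not overlap. By this rule Stab2 fell into 3 steps, NEJ638 and NEJ654 above NEJ687, NEJ677 and NEJ146, and these above NEJ723 and NEJ634. Within each step no neighbors differed. Only neighbors were compared, so the ends of a step can still lie apart. Without section 4 of NEJ146, NEJ687 also stood above NEJ677. With median-ratio scaling (median-ratio size factors over the sections in place of total UMIs), NEJ654 was the highest tissue and NEJ677, at 56.4, joined NEJ654 and NEJ638 in the top step above NEJ687 (41.4) and NEJ146 (41.0). The Stab2 range was then 2.91-fold.

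Clec4g, a C-type lectin of sinusoidal endothelium, had the widest range of the 9 genes. It reached 70.1 CPM in NEJ654 (67.6 to 72.7), 62.3 in NEJ638 and 61.0 in NEJ677. It was 33.5 ± 3.98 CPM in NEJ146 (35.6, 37.3, 32.9 and 28.2 in its sections) and 31.2 in NEJ687. It was 18.1 CPM in NEJ634 and 2.66 in NEJ723 (2.20 to 3.19, from 116 UMIs). The 4 steps (NEJ654, NEJ638 and NEJ677, then NEJ146 and NEJ687, then NEJ634, then NEJ723) were separated by the rule above. The highest level was 26.4 times the lowest, and without NEJ723 the range was 3.87-fold.

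Fcgr2b, an inhibitory Fc receptor through which sinusoidal endothelium takes up immune complexes, had its low end in the same tissues as Clec4g. It was 46.6 CPM in NEJ654, 40.6 in NEJ638, 38.4 in NEJ677, 38.3 ± 4.04 in NEJ146 (40.4, 42.4, 37.2 and 33.2) and 35.9 in NEJ687. It was 23.8 CPM in NEJ634 and 7.36 in NEJ723 (6.57 to 8.21, from 321 UMIs). The first 5 tissues had no step between neighbors, whereas NEJ634 and then NEJ723 stood below them. The ends of these 5, NEJ654 (44.6 to 48.7) and NEJ687 (34.4 to 37.5), had intervals that did not overlap. Without section 4 of NEJ146, NEJ654 stood above the next tissue too. The range was 6.34-fold, 1.96-fold without NEJ723 and 9.31-fold with median-ratio scaling.

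Lyve1, a hyaluronan receptor of sinusoidal and lymphatic endothelium, ordered the tissues in another way. It was highest in NEJ687 with 20.1 CPM (18.9 to 21.3), followed by 11.4 in NEJ634 and 10.0 in NEJ638. It was 7.72 ± 0.263 in NEJ146 (8.10, 7.58, 7.66 and 7.53), 7.68 in NEJ723, 6.21 in NEJ677 and 5.01 in NEJ654. NEJ687 stood above all others, and NEJ654, the highest tissue for Clec4g and Fcgr2b, was the lowest for Lyve1. In NEJ723, Lyve1 was level with NEJ146 and Stab2 with NEJ634, whereas Clec4g and Fcgr2b were below all other tissues. The overall Lyve1 range was 4.01-fold. With median-ratio scaling it was 2.93-fold, and NEJ638 then stood above NEJ634 and NEJ146 above NEJ723.

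Pecam1, the adhesion molecule CD31 that both kinds of endothelium carry, differed least. It was 18.5 CPM in NEJ687, 16.6 in NEJ634, 16.5 in NEJ638, 14.7 in NEJ654, 14.5 ± 1.07 in NEJ146 (15.8, 13.8, 14.8 and 13.5), 13.9 in NEJ723 and 13.5 in NEJ677. No neighbors differed by the rule, and the highest level was 1.37 times the lowest. With median-ratio scaling the range was 1.57-fold and ran from NEJ723 to NEJ638. Kdr, the main receptor for the growth factor Vegfa, split the tissues into 3 steps. It was 32.2 CPM in NEJ654, 30.7 in NEJ638 and 27.2 in NEJ677, then 18.7 ± 1.27 in NEJ146 (18.9, 20.5, 17.7 and 17.9), 18.2 in NEJ634 and 17.3 in NEJ687, and 12.2 in NEJ723. Its range was 2.64-fold. With median-ratio scaling NEJ146 formed a step of its own and the range was 3.88-fold.

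Cd34, a sialomucin of capillary endothelium that some blood progenitors and fibroblasts also make, was highest in the 2 tissues with the lowest Clec4g. It was highest in NEJ634 with 23.9 CPM (22.7 to 25.2) and NEJ723 with 17.7, followed by 7.48 ± 0.491 in NEJ146 (7.54, 8.0, 7.56 and 6.81). It was 5.04 CPM in NEJ638, 4.2 in NEJ687, 2.04 in NEJ677 (1.61 to 2.53, from 80 UMIs) and 1.95 in NEJ654 (1.56 to 2.42, from 83 UMIs). NEJ634, NEJ723 and NEJ146 each stood apart from the next, NEJ638 and NEJ687 did not differ, and NEJ677 and NEJ654 formed the lowest step. The range was 12.3-fold with or without NEJ723 and 8.0-fold with median-ratio scaling, by which NEJ638 stood above NEJ687 and NEJ687 did not differ from NEJ677.

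Plvap, which forms the diaphragms of fenestrae and caveolae, did not follow Cd34. It was 69.4 CPM in NEJ638, 68.2 in NEJ654, 65.6 in NEJ687, 53.8 in NEJ677, 50.2 in NEJ634, 38.0 ± 5.99 in NEJ146 (42.5, 41.3, 38.7 and 29.3) and 29.4 in NEJ723. Its sections of NEJ146 spread more than those of any other member, and no neighbors differed by the rule. Without section 4, NEJ146 had 40.9 ± 1.94 CPM (n = 3), and Plvap fell into 4 steps, NEJ638, NEJ654 and NEJ687 above NEJ677 and NEJ634, then NEJ146, then NEJ723. With median-ratio scaling it fell into 3 steps, with NEJ723 the lowest, and its range was 3.41-fold against 2.36-fold in CPM. Vwf, the clotting factor stored by large-vessel endothelium and by megakaryocytes, was 19.3 ± 2.30 CPM in NEJ146 (21.3, 20.1, 19.7 and 16.0), 16.8 in NEJ687, 13.9 in NEJ723, 10.9 in NEJ638, 9.93 in NEJ654, 8.37 in NEJ634 and 6.70 in NEJ677. No neighbors differed here either, and the ends were 2.88-fold apart. Without section 4, Vwf was 20.4 ± 0.842 CPM in NEJ146 (n = 3) and fell into 5 steps, NEJ146, then NEJ687, then NEJ723, then NEJ638, NEJ654 and NEJ634, then NEJ677. With median-ratio scaling the only step set NEJ634 below the other tissues. The highest values of the 3 genes of the capillary and large-vessel list lay in different tissues, namely NEJ638 for Plvap (NEJ654 with median-ratio scaling), NEJ634 for Cd34 and NEJ146 for Vwf. With all sections, only for Cd34 did that tissue stand above the next by the rule.

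**Figure D1:**
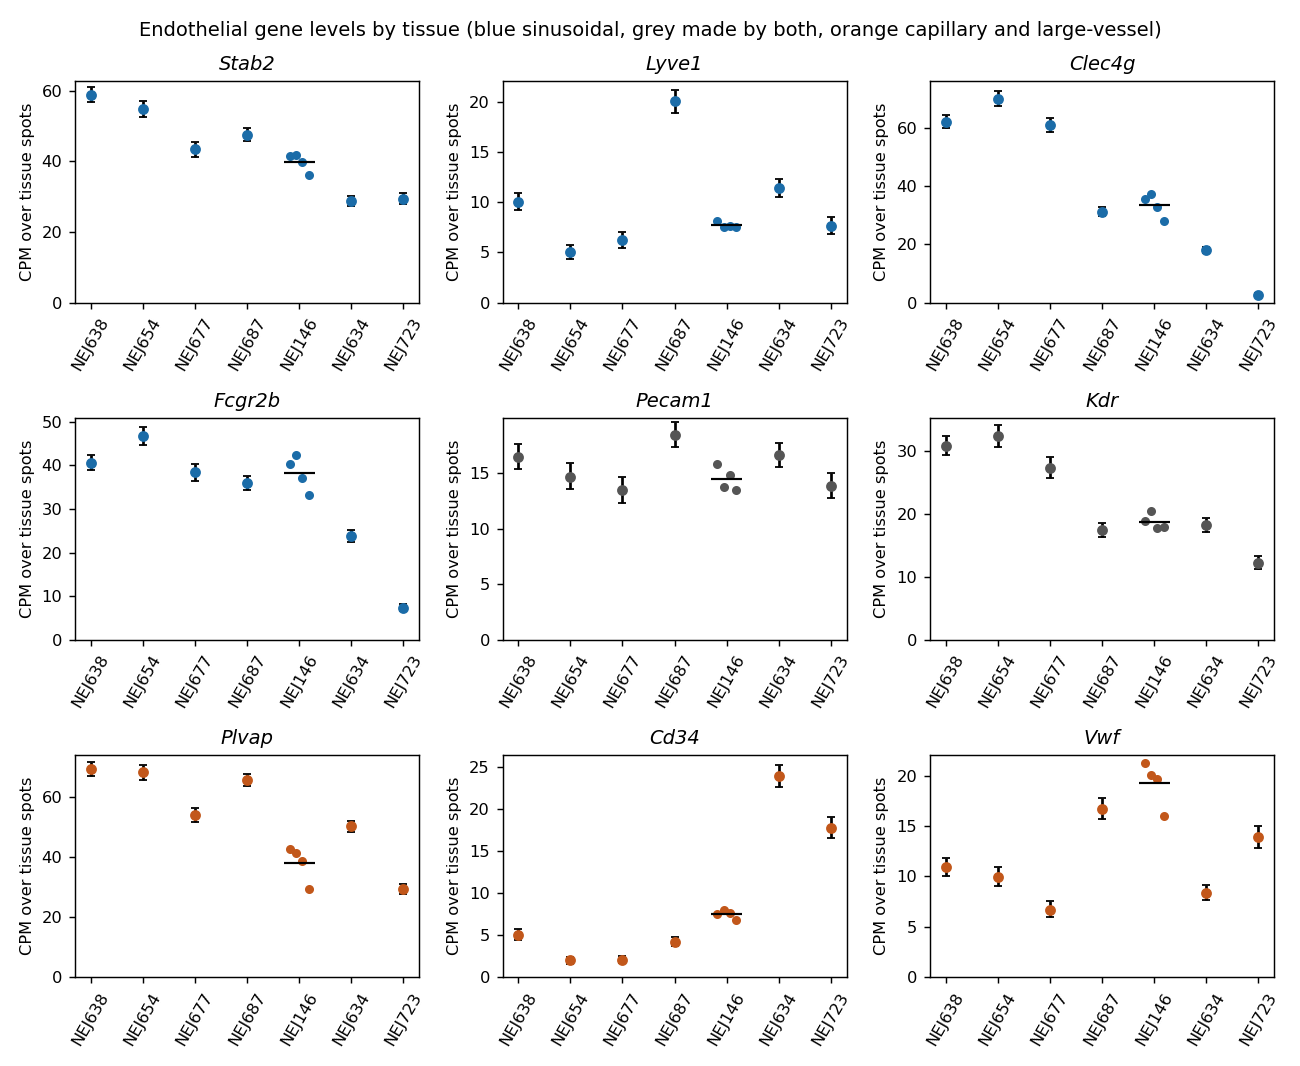
Level of each of the 9 genes by tissue, in CPM over tissue spots on linear axes that start at 0, with the 4 sections of NEJ146 as separate points beside their mean (line) and exact Poisson 95% intervals for tissues with 1 section. Clec4g runs from 2.66 CPM in NEJ723 to 70.1 CPM in NEJ654 and Cd34 from 1.95 CPM in NEJ654 to 23.9 CPM in NEJ634, while Pecam1 stays between 13.5 and 18.5 CPM.

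The ranges were set beside those of all genes. A gene was counted as beyond the section spread where its range over the 7 tissues of log2(CPM + 1) exceeded 10 times the SD between NEJ146 sections (its own, or the median SD of all genes where that was larger). Of the 8021 genes that averaged 10 CPM or more, 62.9% passed, against 6 of the 9 members (66.7%), which is close to that background. The members that passed were Stab2, Lyve1, Clec4g, Fcgr2b, Kdr and Cd34, and those that did not were Pecam1, Plvap and Vwf. Without section 4 of NEJ146, 8 of 9 members passed, beside 81.6% of all genes. A range of at least 4-fold on that scale was found in 22.8% of the 8021 genes and in 3 of 9 members (33.3%), namely Clec4g, Fcgr2b and Cd34. Lyve1, 4.01-fold in CPM, was under 4-fold on the log2(CPM + 1) scale. The mean levels of Lyve1 (9.73 CPM) and Cd34 (8.91 CPM) lay just under the minimum of 10 CPM of the background, so 7 of 9 members passed that filter, and all 9 were counted. The median range was 1.39 log2 units over the 9 members and 1.22 over all 8021 genes. Pecam1 lay at percentile 4.19 of the ranges of all genes, Cd34 at 90.8 and Clec4g at 95.9, so the 9 genes spanned nearly the whole distribution.

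The sinusoidal list was then set against the capillary and large-vessel list. Summed CPM of the 4 sinusoidal genes was 177 in NEJ654, 172 in NEJ638, 149 in NEJ677, 135 in NEJ687, 119 ± 10.7 in NEJ146 (SD, n = 4), 82.2 in NEJ634 and 47.2 in NEJ723, a 3.75-fold range. Summed CPM of the 3 capillary and large-vessel genes varied less (1.42-fold), from 61.0 in NEJ723 to 86.6 in NEJ687. Plvap made up 68.2 of 80.1 CPM of this sum in NEJ654, 65.6 of 86.6 in NEJ687 and 29.4 of 61.0 in NEJ723. The sum varied less than any of its genes, which ranged 2.36-fold (Plvap), 2.88-fold (Vwf) and 12.3-fold (Cd34). Pecam1 and Kdr together had 26.1 CPM in NEJ723 and 47.2 in NEJ638. All 3 groups of genes thus had their lowest sum in NEJ723, and the sinusoidal group had the widest range. The capillary and large-vessel sum of NEJ723 was, however, close to those of NEJ677 (62.6) and NEJ146 (64.7 ± 8.71). As a mean of log2(CPM + 1) over its genes, this list was lowest in NEJ677 (3.44). By that measure NEJ723 (4.35) was second only to NEJ634 (4.52). Fewer endothelial cells and less RNA of these genes per cell cannot be told apart in section sums.

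So that abundant genes did not decide the comparison, the mean of log2(CPM + 1) over the capillary and large-vessel genes was subtracted from that over the sinusoidal genes. This balance was 1.45 in NEJ677, 1.32 in NEJ654, 1.08 in NEJ638, 0.86 in NEJ687, 0.49 in NEJ146, -0.16 in NEJ634 and -1.10 in NEJ723. The 4 sections of NEJ146 had 0.45, 0.48, 0.44 and 0.58 (SD 0.062). The balance of NEJ723 was negative in every setting tried, whereas the sign in NEJ634 depended on the genes, since its value was 0.082 without Lyve1 and 0.42 without Plvap, and -0.0056 as a ratio of summed CPM. Without Cd34, the balance was also negative in NEJ146 (-0.085) and NEJ687 (-0.049). The span from NEJ677 to NEJ723 was 2.56 log2 units, a 5.89-fold change of the ratio. Without NEJ723 the span was 1.61, without Clec4g it was 1.75 and without Cd34 it was 1.70, so that much of the span lay in those 2 genes and that 1 tissue. NEJ723 was the lowest tissue and NEJ634 the next in all 19 settings of scaling, spots and gene lists that were tried. NEJ677, NEJ654 and NEJ638 were the 3 highest in 17 of them, and NEJ687 took the place of NEJ638 when Clec4g or Vwf was left out. The ratio of Clec4g to Cd34 UMIs alone ran from 35.9 in NEJ654 to 0.150 in NEJ723. It was 29.9 in NEJ677, 12.4 in NEJ638, 7.44 in NEJ687, 4.47 in NEJ146 and 0.758 in NEJ634.

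**Figure D2:**
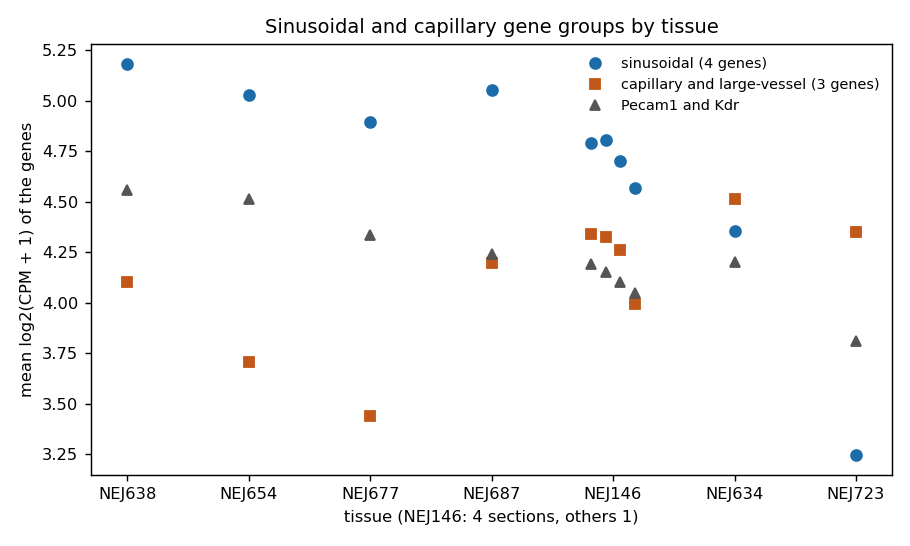
Mean log2(CPM + 1) of the sinusoidal genes (circles), of the capillary and large-vessel genes (squares) and of Pecam1 and Kdr (triangles) by tissue, with 4 points for the sections of NEJ146. The gap between circles and squares is the balance, which is 1.08 to 1.45 in NEJ638, NEJ654 and NEJ677 and is negative in NEJ723 (-1.10) and NEJ634 (-0.16, but 0.082 without Lyve1 and 0.42 without Plvap).

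To take out the amount of endothelial RNA, each member was also divided by the summed UMIs of the 16 general endothelial genes. Pecam1 was then at 5.41 to 6.19 per 100 of those UMIs, a 1.14-fold range, but at 7.27 in NEJ638 to 10.1 in NEJ723, a 1.39-fold range, where Egfl7 was left out of the divisor. Clec4g ranged from 1.09 per 100 in NEJ723 to 28.0 in NEJ677 (25.6-fold), and Fcgr2b from 3.02 in NEJ723 to 18.5 in NEJ654 (6.12-fold). Cd34 ranged from 0.775 in NEJ654 to 8.29 in NEJ634 (10.7-fold). Without Egfl7 in the divisor these ranges were 18.5-fold for Clec4g, 4.46-fold for Fcgr2b and 12.9-fold for Cd34, whose highest tissue was then NEJ723. The 3 genes thus ranged more than 4-fold with either divisor. With all 16 genes, Stab2 ran from 10.0 in NEJ634 to 21.8 in NEJ654, Kdr from 5.01 in NEJ723 to 12.8 in NEJ654, and Plvap from 12.1 in NEJ723 to 27.1 in NEJ654. Lyve1 ran from 1.99 in NEJ654 to 6.19 in NEJ687 and Vwf from 2.90 in NEJ634 to 7.74 in NEJ146. Without Egfl7 the lowest tissue moved for Kdr (7.78 in NEJ687, against 8.89 in NEJ723), Plvap (20.5 in NEJ146, against 21.4 in NEJ723) and Vwf (3.73 in NEJ677). The 3' UMI counts do not scale with transcript length, but capture differs between genes, so these shares are compared between tissues and not between genes.

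Other endothelial genes were read in the same tissues. Of 11 further sinusoidal genes, 7 were beyond the section spread and 2 had a range of at least 4-fold, with a median range of 1.42 log2 units, shares near the 62.9% and 22.8% of the 8021 genes. That background holds genes of 10 CPM or more, a mean that 10 of the 11 reached. Dnase1l3, a secreted nuclease, followed Clec4g, with 67.3 CPM in NEJ654, 54.9 in NEJ638, 53.7 in NEJ677, 35.1 in NEJ687, 24.4 ± 4.36 in NEJ146, 14.3 in NEJ634 and 3.58 in NEJ723. Oit3 had 26.7 CPM in NEJ638, 24.3 in NEJ654, 22.5 in NEJ677, 17.1 in NEJ687, 15 ± 0.476 in NEJ146, 11.6 in NEJ634 and 5.45 in NEJ723. Stab1, the scavenger receptor related to Stab2, did not pass, with 33.3 CPM in NEJ146 to 48.1 in NEJ634.

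Of the 16 general endothelial genes, 5 were beyond the section spread and none had a range of at least 4-fold (median range 0.92), both below the shares of all genes, and 8 of the 16 averaged 10 CPM or more. Egfl7 was the only one of the 16 that was highest in NEJ723, whereas Cdh5, Tek, Eng, Esam, Ramp2, Cldn5, Robo4 and Sox18 were lowest there, with Eng at 26.0 CPM against 62.3 CPM in NEJ638. Of 4 pericentral endothelial genes, 2 passed, and the signal Wnt2, made by endothelium near the central vein, ran from 0.412 CPM in NEJ723 to 7.65 in NEJ654. Of 6 portal and arterial genes, 3 passed and none was at least 4-fold on the log2(CPM + 1) scale, which compresses genes near 1 CPM. In CPM, Efnb2 (5.26-fold), Gja5 (7.0-fold) and Adgrg6 (4.80-fold) were over 4-fold. None of the pericentral and 1 of the portal and arterial genes averaged 10 CPM, so the shares of all genes are no measure for them.

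Basement membrane genes, which fibroblasts and tumor cells can also make, had their highest summed levels in the 2 tissues of lowest balance. Of the 7, 4 were beyond the section spread and 6 had a range of at least 4-fold (median range 2.66), beside 62.9% and 22.8% of all genes, so that only the second count lay above the background. Of the 7, 5 averaged 10 CPM or more. Their summed level was 842 CPM in NEJ634 and 842 in NEJ723, 383 in NEJ687, 286 ± 34.3 in NEJ146, 275 in NEJ638, 154 in NEJ654 and 152 in NEJ677. Col4a1, a chain of collagen IV, had 353 CPM in NEJ634 and 345 in NEJ723 against 55.2 in NEJ654. Col15a1 and Lama4 were also highest in NEJ634 (22.5 and 10.7 CPM) but departed from the sum in NEJ723, with 7.38 and 5.06 CPM there and 7.95 and 5.37 CPM in NEJ638. NEJ634 and NEJ723 were also the tissues with the highest Cd34. Of 9 angiogenic signals, 7 passed and 2, Vegfa and Esm1, were at least 4-fold on that scale, while in CPM Pgf, Angpt2, Apln and Aplnr were over 4-fold too. Vegfa alone averaged 10 CPM, so the shares of all genes are no measure for this list either. Vegfa, the ligand of Kdr, had 130 CPM in NEJ638, 84.2 in NEJ654, 62.9 in NEJ677, 38.2 in NEJ634, 37.0 in NEJ687, 25.8 ± 2.94 in NEJ146 and 24.5 in NEJ723. The 3 highest tissues of Vegfa were the 3 highest of Kdr.

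Cells other than endothelium also make some members, and their marker genes moved over the tissues too. Megakaryocyte and platelet markers, 8 genes, summed to 153 CPM in NEJ723, 149 in NEJ687, 87.6 ± 12.4 in NEJ146, 65.7 in NEJ634 and 9.5 to 14.8 in the other 3 tissues. Kupffer cell and macrophage markers, 8 genes, ran from 282 CPM in NEJ723 and 296 in NEJ638 to 1665 in NEJ687. The defining Kupffer genes Clec4f and Vsig4 were near 0 in NEJ723, at 0.275 and 0.665 CPM, against at least 75.2 and 22.5 CPM elsewhere. Timd4 and Marco were lowest in NEJ723 too. By contrast, Cd5l, Adgre1, Csf1r and C1qa were lowest in NEJ638, with C1qa at 56.1 CPM there and 124 CPM in NEJ723. Fibroblast markers, 6 genes, ran from 242 CPM in NEJ677 to 1525 in NEJ634, the tissue with the highest Cd34. NEJ723, the next in Cd34, had 409 CPM of them, below NEJ638 (610) and NEJ146 (550 ± 71.4). Stellate cell markers, 6 genes, ran from 74.4 CPM in NEJ723 to 437 in NEJ654. Haematopoietic progenitor markers, 6 genes, summed to 25.8 to 50.8 CPM. B cell markers, 4 genes, summed to 3.45 to 7.61 CPM, and mesothelial markers, 4 genes, to 0.407 to 6.49 CPM. Lymphatic markers, 3 genes, summed to 1.05 to 16.6 CPM, of which most was Ccl21a in NEJ146, NEJ638, NEJ654 and NEJ677 (6.14 to 12.9 CPM). Ccl21a was at 0.018 to 0.092 CPM in the other tissues, and its UMIs cannot be assigned with certainty among near-identical copies. The part of these cells in the levels of Fcgr2b, Lyve1, Cd34 and Vwf was not tested by the sums, and the placement of the genes in the sections is given next.

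Whether genes share spots was measured as the number of pairs of UMIs of 2 genes in the same spot, divided by the number expected from the total UMIs of each spot. A ratio of 1 means that the genes are found together as often as the total UMIs give. Over the 6 pairs of sinusoidal genes, the ratio was above 1 in 40 of 42 combinations of pair and tissue, with pair medians of 1.05 to 1.17. A sinusoidal gene with any gene of 10 CPM or more that is no member was above 1 in 35.8% of combinations. Clec4g with Fcgr2b had ratios of 1.04 in NEJ638 to 1.56 in NEJ634, and Lyve1 with Clec4g had 1.10 in NEJ638 to 1.69 in NEJ723, where only 35 pairs were counted. Over the 3 pairs of capillary and large-vessel genes it was above 1 in 19 of 21 combinations, against 44% for such a gene with all genes that are no members. Cd34 with Vwf had 3.87 in NEJ638, 3.59 in NEJ677, 2.02 ± 0.375 in NEJ146, 1.99 in NEJ687, 1.95 in NEJ654, 1.04 in NEJ634 and 0.993 in NEJ723, from at least 36 pairs. Cd34 and Vwf thus shared spots in 5 tissues and hardly more than total UMIs gave in NEJ634 and NEJ723.

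Between a sinusoidal and a capillary or large-vessel gene, the ratio was above 1 in 42 of 84 combinations, nearer to those backgrounds of 35.8% and 44%, and none of the 12 pairs was above 1 in all 7 tissues. Stab2 with Cd34 was above 1 in 1 tissue, with a median of 0.90. In NEJ634 all 4 sinusoidal genes were under 1 with Cd34, at 0.751 for Stab2, 0.684 for Lyve1, 0.642 for Clec4g and 0.755 for Fcgr2b. For the summed lists the ratio was 1.12 ± 0.036 in NEJ146, 1.06 in NEJ634, 1.05 in NEJ723, 1.06 in NEJ687, 0.988 in NEJ654, 0.985 in NEJ677 and 0.937 in NEJ638. The mean of the lists as a whole was 1.03 over 7 tissues, with 4 tissues above 1 and the others below. Single genes had a median of 0.981 with the sinusoidal sum and a 95th percentile of 1.03. Pecam1 with Vwf was above 1 in all 7, from 1.28 in NEJ723 to 2.11 in NEJ146.

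**Figure D3:**
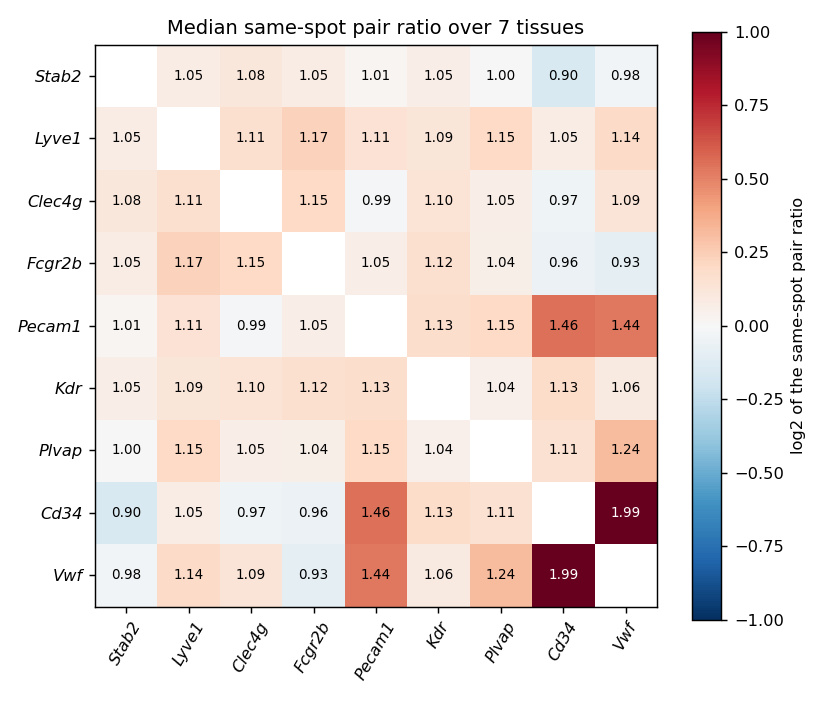
Same-spot pair ratios of the 9 genes, each cell giving the median over 7 tissues of observed over expected pairs of UMIs. Pairs within the sinusoidal list lie between 1.05 and 1.17 and those within the capillary and large-vessel list between 1.11 and 1.99, whereas pairs across the lists lie between 0.90 and 1.15.

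Vwf shared spots with megakaryocyte markers. The ratio was 5.33 in NEJ687, 4.38 in NEJ634, 4.11 in NEJ723, 3.91 ± 0.843 in NEJ146, 1.41 in NEJ638, 1.36 in NEJ677 and 1.05 in NEJ654. Spots with a UMI of Ppbp, Gp9, Gp1bb or Treml1, genes of platelets, held 35.5% of Vwf UMIs and 26.7% of all UMIs in NEJ723. The shares were 32.4% and 26.2% in NEJ687, 21.1% and 16.1% in NEJ146, and closer to each other in NEJ634 (17.1% and 14.9%). In the spots without them, Vwf was 18.1 CPM in NEJ146, 15.3 in NEJ687, 12.2 in NEJ723, 10.9 in NEJ638, 9.96 in NEJ654, 8.15 in NEJ634 and 6.68 in NEJ677. The order of the 7 tissues by Vwf was the same without those spots. Pf4, the marker with the highest mean of that list (95.7 CPM in NEJ723), was not used to pick them. Spots left can therefore still hold megakaryocyte RNA, and the part of these cells in the order was not tested. Vwf also shared spots with pericentral endothelial genes (median 1.77) and with fibroblast genes (median 1.77), each above 1 in 7 of 7 tissues. With lymphatic endothelial genes the median was 2.91, above 1 in 7 of 7 and from at least 51 pairs. In NEJ687 (6.82) and NEJ723 (3.42) that list was mostly Mmrn1, with 1.10 of 1.24 CPM and 0.802 of 1.05 CPM. Thbd made up 9.39 of 13.7 CPM of the pericentral list in NEJ634 and 5.18 of 6.51 CPM in NEJ723. Which cells made these UMIs was not tested.

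Cd34 shared spots with portal and arterial endothelial genes (median 1.84), fibroblast genes (1.81) and basement membrane genes (1.47), each above 1 in 7 of 7 tissues. In every tissue most of the portal and arterial sum was Ltbp4, with 32.7 of 44.4 CPM in NEJ723 and 72.1 of 85.7 CPM in NEJ638. That ratio therefore mainly reflects 1 gene. With lymphatic endothelial genes it reached a median of 3.54, from 1.21 in NEJ723 to 15.6 in NEJ677, above 1 in 7 of 7 but from as few as 8 pairs. With mesothelial genes the median was 2.29, above 1 in 6 of 7 and from as few as 2 pairs. With the haematopoietic progenitor list it stood at 0.957, above 1 in 3 of 7, but most UMIs of that list were of Hlf and Meis1, which other cells of liver also make, so the value says little about progenitors. For Cd34 with fibroblast genes, the ratio was 3.61 in NEJ638 and 1.18 in NEJ634, the tissue with most of both. Fcgr2b stood at 1.01 with Kupffer and macrophage genes and at 0.958 with B cell genes, and Lyve1 at 1.02 with Kupffer and macrophage genes. Pecam1 had a median of 1.25 with megakaryocyte genes and of 1.77 with lymphatic genes, above 1 in 6 of 7 tissues with the latter. Lyve1 with lymphatic genes had 3.99 in NEJ638 and 3.27 ± 0.539 in NEJ146 but 0.490 in NEJ634, from as few as 9 pairs.

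Members also differed between spots with and without Kupffer genes, most widely for Clec4g in NEJ634. There, spots with a UMI of Clec4f or Vsig4 held 77% of all its UMIs. Clec4g was 22.0 CPM in them and 5.23 CPM in the other spots, Lyve1 13.7 and 3.69, Fcgr2b 27.1 and 12.7, and Stab2 32.3 and 17.6. Cd34 was the other way round, with 20.2 CPM in the spots with Kupffer genes and 36.4 CPM in those without. The other capillary and large-vessel genes did not follow Cd34, since Plvap had 54.5 and 35.9 CPM and Vwf 8.57 and 7.69 CPM. Kdr had 19 and 15.5 CPM and Pecam1 17.0 and 15.4 CPM. As a share of UMIs, Cd34 was thus the only member denser in the spots without Kupffer genes, although 65.0% of its UMIs lay in the spots with them. How many of all genes were denser in either kind of spot is not given, so no excess of the members can be read from this. Other tissues showed part of the same directions. In NEJ146 Clec4g was 35.4 CPM in spots with Kupffer genes and 23.5 CPM in those without, and Cd34 7.31 and 8.40. In NEJ687 Lyve1 was 21.0 and 13.4 CPM, Fcgr2b 37.1 and 27.6 and Cd34 4.01 and 5.55. In NEJ638 and NEJ654 Clec4g was slightly higher without Kupffer genes, at 61.5 and 64.7 CPM and at 70.0 and 72.1 CPM.

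**Figure D4:**
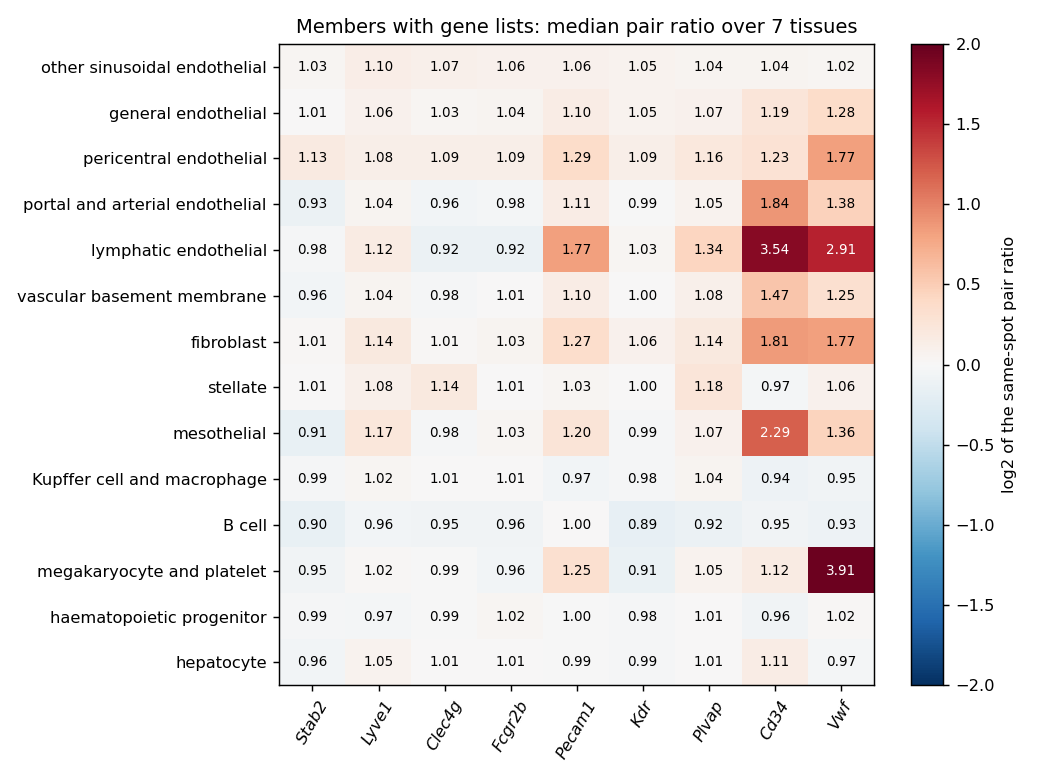
Same-spot pair ratios of the 9 genes with gene lists of endothelial subtypes and of other cell types, as the median over 7 tissues. Vwf reaches 3.91 with megakaryocyte genes and Cd34 reaches 3.54 with lymphatic endothelial genes, which rest on few pairs. Cd34 reaches 1.84 with portal and arterial endothelial genes, a list that is mostly Ltbp4. Stab2, Clec4g and Fcgr2b stay near 1 with most lists as medians, although Clec4g had 4.74 with megakaryocyte genes in NEJ723.

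Clustering of 1 gene over adjacent spots was read as the same ratio for pairs of its UMIs in neighboring spots. It was above 1 in all 7 tissues for 2 of 9 members (22.2%), Lyve1 (1.08 to 1.63) and Vwf (1.08 to 2.01), against 6.43% of the 8021 genes. Of these, Lyve1 is under the 10 CPM minimum of that background. For pairs of UMIs within the same spot, 7 of 9 members, all but Stab2 and Pecam1, were above 1 in all 7 tissues, against 12.3% of the 8021 genes. Cd34 was above 1 in 6 tissues, with 2.72 in NEJ638, 2.37 in NEJ677, 1.82 ± 0.201 in NEJ146, 1.40 in NEJ687, 1.15 in NEJ634 and 1.09 in NEJ723, and was 0.553 in NEJ654, where 83 UMIs were counted. Clec4g was clustered most in NEJ634 (1.72) and NEJ146 (1.33 ± 0.136), and was between 0.974 and 1.07 in the other tissues. Stab2 had a median of 1.01 and Pecam1 of 1.01, with highest values of 1.2 in NEJ634 for Stab2 and 1.14 in NEJ146 for Pecam1. The medians of all genes were 0.965 to 1.01 by tissue.

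Position in the liver lobule was taken from hepatocyte genes. Spots with at least 10 UMIs of the pericentral genes Glul, Cyp2e1, Cyp1a2, Oat and Slc1a2 or the periportal genes Cyp2f2, Hal, Hsd17b13, Ass1 and Pck1 were split into 3 equal parts by the share of periportal UMIs. These gene sets avoided each other in NEJ638, NEJ654 and NEJ677, with same-spot ratios of 0.744, 0.749 and 0.712, but not in NEJ146 (1.26 ± 0.059), NEJ634 (1.23), NEJ687 (1.06) and NEJ723 (0.998). The parts therefore follow a lobule axis in the former tissues only, and in the latter they only rank spots by that share.

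Cd34 was on the periportal side in all 3 tissues with a lobule axis. From the pericentral to the periportal part it was 2.83, 5.27 and 7.53 CPM in NEJ638, 1.28, 1.36 and 3.21 CPM in NEJ654, and 0.813, 1.71 and 3.59 CPM in NEJ677. The log2 ratio of the periportal over the pericentral part was 1.41 (0.94 to 1.90), 1.33 (0.54 to 2.16) and 2.14 (1.18 to 3.23). Stab2 was on the pericentral side there, with log2 ratios of -0.29, -0.35 and -0.37 and intervals below 0. Clec4g differed little, with log2 ratios of -0.02, -0.08 and 0.02 whose intervals include 0. Fcgr2b was -0.23 in NEJ638 with an interval below 0, and near 0 in NEJ654 (-0.07) and NEJ677 (0.02). Lyve1 and Kdr had intervals that include 0 in all 3.

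Vwf was lowest in the middle part of these tissues. From pericentral to periportal it was 12.0, 7.87 and 12.6 CPM in NEJ638, 13.3, 6.47 and 9.28 CPM in NEJ654, and 8.94, 3.26 and 7.47 CPM in NEJ677. The middle part rests on 81 Vwf UMIs in NEJ654 and 40 in NEJ677. Vwf is known from larger vessels, which in liver lie at both ends of the lobule. No vessels were located in these sections, so a link to them was not tested. Plvap was higher on the periportal side in NEJ654 only (0.34), with 60.04, 69.8 and 75.8 CPM.

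In the other 4 tissues, all members with an interval off 0 were higher in spots with fewer periportal UMIs. In NEJ146 this held for all 9 members, led by Vwf with 31.2, 14.0 and 11.3 CPM (log2 ratio -1.47) and Cd34 with 10.3, 6.76 and 5.02 CPM (-1.04). Over the NEJ146 sections these ratios were -1.50 ± 0.28 for Vwf and -1.06 ± 0.26 for Cd34 (SD, n = 4). Lyve1 had -0.17 ± 0.20, with a section above 0. In NEJ634 it held for 8 of 9, with Lyve1 at 16.0, 11.4 and 6.74 CPM (-1.25). Vwf had log2 ratios of -0.88 in NEJ687 and -0.31 in NEJ723, where the interval (-0.60 to -0.013) ended close to no difference. Over all 63 combinations of member and tissue, 32 (50.8%) had an interval off 0, against 34.9% of combinations over the 8021 genes. Of these, 28 (44.4% of 63) were on the pericentral side, against 20.1% of all combinations. Same-spot pair ratios of single genes were above 1 in all 7 tissues for 7 of 9 members and 12.3% of the 8021 genes. The part of such clustering in the excess was not tested. The excess differed between tissues. In NEJ146 9 of 9 members were on that side beside 34.8% of the 8021 genes, and in NEJ634 8 of 9 beside 17.9%. In NEJ687 and NEJ723 they were 3 and 2 of 9, beside 7.26% and 3.78%. In NEJ638, NEJ654 and NEJ677, the tissues with a lobule axis, they were 3, 2 and 1 of 9 (33.3%, 22.2% and 11.1%) beside 19.2%, 29.3% and 28.2%, so that the share was above the background in NEJ638 and below it in NEJ654 and NEJ677.

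**Figure D5:**
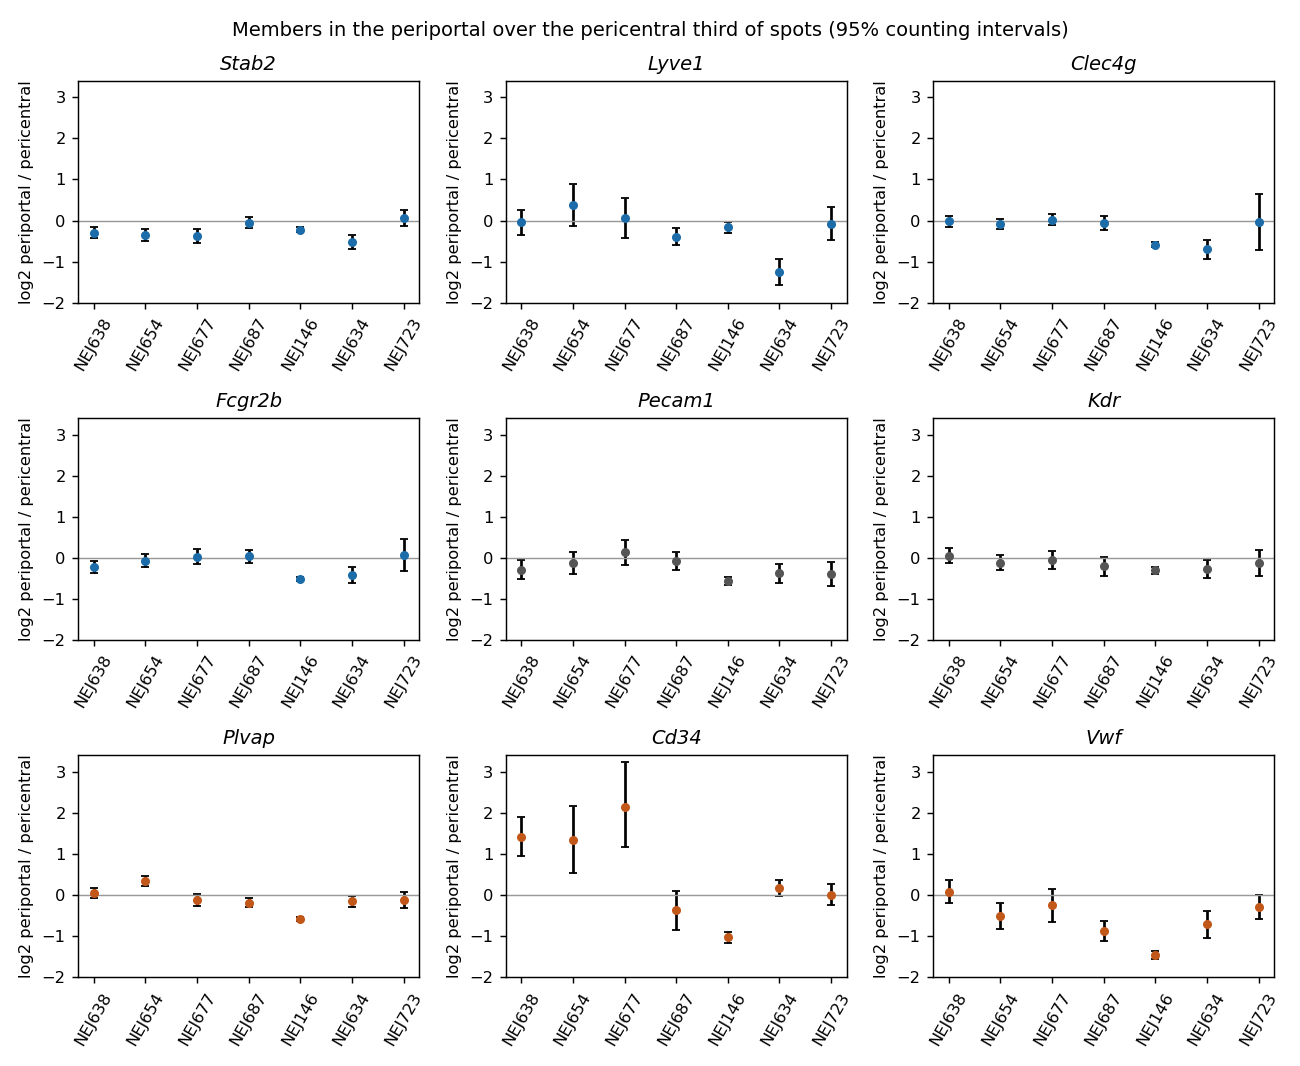
Log2 ratio of CPM in the periportal over the pericentral part of spots, by gene and tissue, with exact 95% intervals. The intervals treat each UMI as independent and can be too narrow for genes that cluster within spots. Cd34 is at 1.33 to 2.14 in NEJ638, NEJ654 and NEJ677 and at -1.04 in NEJ146. Vwf lies at -1.47 in NEJ146 and below 0 in 5 tissues with intervals off 0, that of NEJ723 ending at -0.013.

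The genes most like each list over the 7 tissues were found by Pearson's r of log2(CPM + 1) with the summed list, as a description over 7 points that share depth and preparation. For the sinusoidal sum these were Dnase1l3 (0.993), Flad1 (0.992), Oit3 (0.989), Tcn2 (0.989) and Abcg5 (0.988). For the capillary and large-vessel sum they were Exoc3 (0.955), Mtg2 (0.937), Tmem135 (0.934), Plxnd1 (0.922) and Stx2 (0.920). Within sections, the genes sharing spots most with the sinusoidal sum were Oit3 (mean ratio 1.22), Gstm3 (1.18), Adh1 (1.17), Cyp3a11 (1.16) and Gpr182 (1.16). Of these, Oit3 and Gpr182 are on the sinusoidal list used above, and Gstm3, Adh1 and Cyp3a11 are genes of hepatocytes. With the capillary and large-vessel sum they were Eln (1.75), Mgp (1.62), Myl9 (1.47), Col1a1 (1.45) and Tagln (1.44), genes of elastic fibers, smooth muscle and collagen that are known from vessel walls. These 5, Oit3 and Gpr182 were above 1 in 7 of 7 tissues, Cyp3a11 in 6, Gstm3 in 5 and Adh1 in 4. Over 8021 genes with at least 200 UMIs in every tissue, the median ratio was 0.981 with the sinusoidal and 0.986 with the capillary and large-vessel sum, and the 95th percentile was 1.03 and 1.06.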

How the data were processed

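Gene expression was measured in 10 frozen sections of 7 mouse tissues with Visium slides. Per the study's methods for this assay, the ABC-Myc mouse was perfused through the heart with buffer and then collagenase before the tissue was taken. What this did to the levels of vessel genes was not tested. The deposited values are unnormalized UMI counts of each gene in each spot. Per the labels' processing notes these came from Space Ranger 1.3 and build mm10 for 6 tissues, and from Cell Ranger 6.0 for NEJ146, whose build is not given in the sources used here. The headers of the deposited counts name Cell Ranger 4 in all 10 sections, NEJ146 included, so the sources differ. No position file was used for NEJ146, whose array coordinates came from the same barcodes in other sections. Counts were summed over tissue spots and divided by total UMIs (CPM), so a member's level also moves with abundant genes such as Alb. Gene positions are those of GENCODE M21 on GRCm38. The 9 genes and all lists were chosen with earlier results of these data known. Further genes were named as the 2 of highest mean CPM in a list and any with a range over 4-fold and a mean of at least 10 CPM, of which the text prints a part. Python 3.11.15, numpy 2.4.6, scipy 1.17.1, pandas 2.3.3 and matplotlib 3.10.9 were used, and scripts were tested on simulated data. Alternatives covered scaling, spots, pseudocount, genes, zone parts and sections. Settings without NEJ723 or without Egfl7, the steps without section 4 or with median-ratio scaling, and Vwf and Pecam1 in spots without platelet genes, were chosen after seeing the data. No doublet caller was run, and no spots were left out beyond the rules given.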

Additional observations from a re-analysis of the deposited data

Results flagged for a closer look

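Cd34 and Plvap lay on opposite sides of the zonation split in different tissues, and these differences were not tested. The log2 ratio of Cd34 in the periportal over the pericentral part of spots was 2.14 in NEJ677 (and positive with an interval off 0 in 3 tissues) and -1.04 in NEJ146, where each of the 4 sections was below 0. For Plvap it was 0.34 in NEJ654 and -0.59 in NEJ146. The pericentral and periportal hepatocyte genes avoided each other in NEJ677 (same-spot ratio 0.712) and NEJ654 (0.749) and not in NEJ146 (1.26), and the part of this in the ratios was not tested. Over the 4 sections of NEJ146, none of 13 values checked had a section far enough from the others to pass, in a rule that with 4 points needs a gap of most of the whole range. Over all genes section 4 did stand apart, and its Plvap was the lowest (29.3 CPM against 38.7 to 42.5 CPM).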

How the results depend on the processing

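The span of the balance, 2.56 log2 units, was 1.62 as a ratio of summed CPM, 2.85 and 1.84 with pseudocounts of 0.1 and 5, 2.93 without Stab2, 3.20 without Lyve1, 1.75 without Clec4g, 2.36 without Fcgr2b, 3.44 without Plvap, 1.70 without Cd34 and 1.61 without NEJ723. It was 2.54 to 2.59 without Vwf and under the other settings of scaling and spots. NEJ146 lies inside the span, so leaving out one of its sections cannot move it. In NEJ634 the balance turned to 0.082 without Lyve1 and 0.42 without Plvap, and without Cd34 it turned to -0.085 in NEJ146 and -0.049 in NEJ687. Members beyond the section spread numbered 6, 3 at 20 and 8 at 5 times the SD (21.6% and 92.3% of all genes), 4 without NEJ723 (56.8%), and 5 to 8 when a NEJ146 section was left out. The 8 (81.6% of all genes) came without section 4, whose Plvap of 29.3 CPM lay under 38.7 to 42.5 in the other sections. Clustered members numbered 2 over adjacent spots and 7 within the same spot (6.43% and 12.3% of all genes). The co-occurrence of the lists stayed between 1.02 and 1.03 and the separated zone combinations between 30 and 33. Spearman's rho shared 2 of the 10 most similar genes with Pearson's r. Median-ratio scaling moved the median of all genes by -0.36 in NEJ634, -0.30 in NEJ723, -0.20 in NEJ687, 0.04 in NEJ146, 0.09 in NEJ638, 0.24 in NEJ654 and 0.36 in NEJ677 (log2), and widened the range of Clec4g to 38.7-fold and narrowed that of Cd34 to 8.0-fold. Sections of NEJ146 differed beyond counting error, and low levels (Cd34 in NEJ654 and NEJ677, Clec4g in NEJ723) rest on 80 to 116 UMIs. No paired analysis was possible because 6 of the 7 tissues had 1 section.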
